A study of Mus musculus with 8 samples.

Results

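Fatty acid oxidation was followed through 35 genes that encode the enzymes, carriers and uptake proteins of the pathway, in whole skin of late mouse embryos (E18.5). The members were chosen by name, with earlier results of these data known. They were read through the probe sets whose platform annotation gives a member as its only symbol. Of the 35 genes, 28 had 35 probe sets on the A chip and 11 had 13 probe sets on the B chip, so that 32 genes were read on at least 1 chip, 7 of them on both. The chips hold 12422 and 12411 probe sets apart from controls. RNA came from p63 null embryos and wild-type embryos, 2 of each, from crosses of p63 heterozygous mice, and was hybridised to single-colour Affymetrix arrays, 4 of each chip. The labels give neither the strain nor the altered part of the p63 gene (Trp63), which encodes a transcription factor of stratified epithelia, and the same embryo number on both chips is not stated to be the same embryo. The question put to these arrays is which transcripts differ in skin that lacks p63.

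Mitochondria shorten fatty acids in a repeated cycle of 4 steps, after the fatty acid has been activated to an acyl-CoA outside the matrix and carried across the inner membrane as a carnitine ester. Peroxisomes run a related cycle with their own enzymes on very long and branched chains and pass the shortened products on to mitochondria. The pathway is active in muscle and in brown adipocytes, which burn fatty acids to make heat. Its activity in these skin samples was not measured.

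On the A chip the mitochondrial pathway rose together. Each gene was read by its tested probe set with the highest mean signal, and a call means an adjusted p under 0.05 in limma. Of 25 tested members 21 were higher and 2 lower in null skin, where 45.2% of all 5779 tested genes were called, 22.4% higher and 22.8% lower. By probe set, 22 of 28 were higher and 2 lower, beside 44.3% of all 7453 called, 22.1% higher and 22.2% lower. Both null arrays lay above both wild-type arrays for 23 of the 25 genes and below them for 2, where 73.9% of all tested probe sets had no overlap, 37.8% with the null above and 36.2% with it below. All 15 tested mitochondrial members rose, the median log2 fold change being 0.90 and the values from 0.40 to 1.44, beside a median of 0.01 over all tested genes. The 3 tested members that work in both mitochondria and peroxisomes rose too, with a median of 0.70. Of the 3 tested peroxisomal members 2 rose, with a median of 0.41. These were the membrane protein Pex11a and the enzyme Hsd17b4, whose call was lost under 5 of 12 alternatives. The compartments were not tested against each other. The 4 tested members of fatty acid uptake and activation were divided, 1 higher and 2 lower, with a median of 0.04. At least 2-fold rises were seen for 9 of the 25 members, where 6.66% of all tested genes rose that far, and 0 members fell that far, where 7.08% of all did. All 25 genes had a mean above the filter level within each genotype, so none was tested through its high group alone.

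The B chip carried fewer members. Of 9 genes tested, 4 were higher and 1 was lower, where 32.1% of all 5345 tested genes were called, 16.1% higher and 16% lower (by probe set, 29.4% of all, 14.5% higher and 14.9% lower). Both null arrays lay above both wild-type arrays for 7 of the 9 and below them for 1, where 67.7% of all tested probe sets had no overlap, 36% with the null above and 31.7% with it below. Rises of at least 2-fold were called for 2 members and falls of that size for 0, where 4.55% and 6.74% of all tested genes had them. Crat, 1 of the 4 and 1 of the 2, passed the filter only through the null arrays, and among the 8 genes above the filter level in each genotype 3 were higher and 1 lower. The median of the 9 was 0.64, beside 0.04 over all tested genes. Over both chips, 30 members were tested, 22 were called higher on a chip and 3 were called lower. The shares of all genes are those given for each chip, and none was taken over both. Only 4 members, Crat, Decr1, Pex11a and Slc27a1, were tested on both chips, and 0 were called in opposite directions. Pex11a was called on the A chip only.

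**Figure D1:**
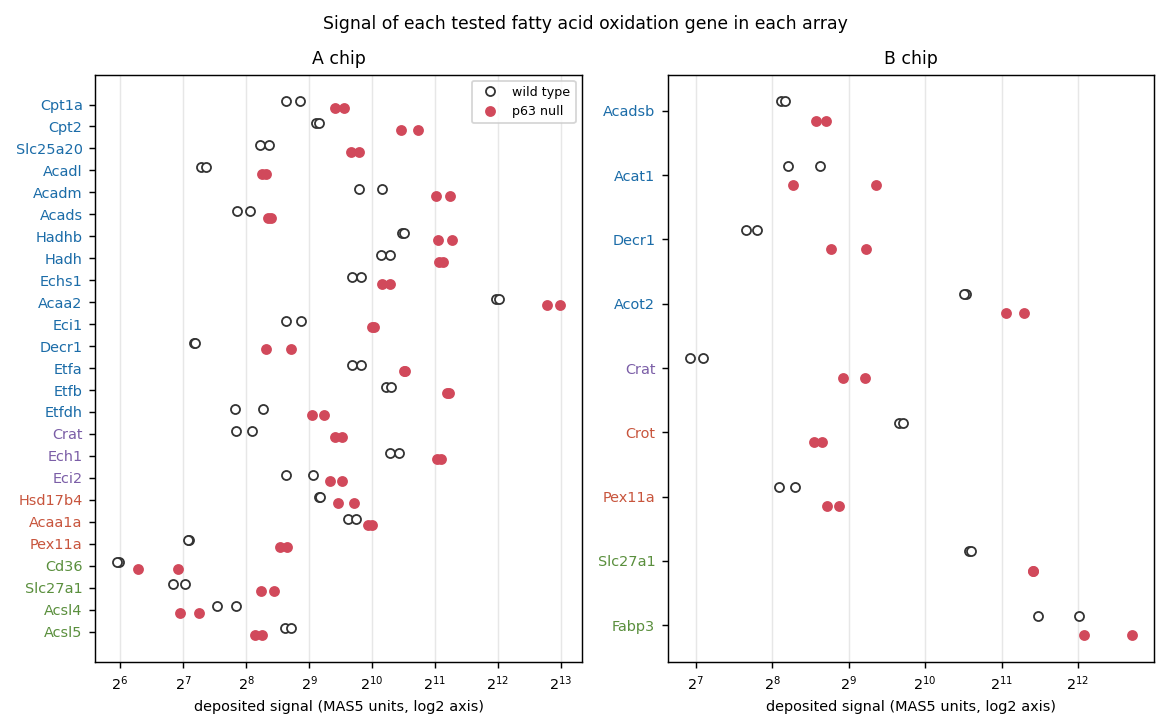
Deposited signals of each tested fatty acid oxidation gene on the A chip (left) and the B chip (right), on a log2 axis, with open points for the 2 wild-type arrays and filled points for the 2 null arrays. Gene names are blue for mitochondrial members, purple for both compartments, orange for peroxisomal members and green for uptake, binding and activation; both null points lie to the right of both wild-type points for 23 of 25 genes on the A chip and to the left for Acsl4 and Acsl5.

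The carnitine shuttle moves activated fatty acids into the mitochondrial matrix. Cpt1a, the outer-membrane carnitine palmitoyltransferase that sets the rate of entry, read 398.5 and 463.4 in wild-type skin and 678.7 and 750.8 in null skin (log2 fold change 0.72, SE 0.13, adjusted p = 0.00228). Slc25a20, the carrier that exchanges acylcarnitine for carnitine across the inner membrane, read 297.2 and 329.9 against 884.4 and 814.1 (1.40, SE 0.13, adjusted p = 3.76e-05). Cpt2, which turns acylcarnitine back into acyl-CoA inside the matrix, read 550.4 and 571.9 against 1415 and 1691 (1.44, SE 0.13, adjusted p = 3.14e-05). The groups did not overlap for any of the 3, and the carrier and the inner enzyme changed more than 2-fold while the 95% interval of Cpt1a, 0.42 to 1.01, lay below theirs, which began at 1.12 and 1.16. The difference between these genes was not tested. Cpt1b, the form of the outer-membrane enzyme in muscle and brown fat, had no probe set of its own, because the annotation of its only match names 3 genes. The second Cpt2 probe set read at most 3 in all arrays and was not tested.

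The first step of the cycle is taken by acyl-CoA dehydrogenases, each with its own range of chain lengths. Acadm, the medium-chain enzyme, read 890.7 and 1146 in wild-type skin and 2403 and 2066 in null skin (log2 fold change 1.13, SE 0.15, adjusted p = 0.000303). Acadl, the long-chain enzyme, read 156.8 and 164.6 against 318.8 and 305.3 (0.90, SE 0.15, adjusted p = 0.00107). Both null embryos lay above both wild-type embryos for each. Acads, the short-chain enzyme, was less certain. Its brighter probe set rose by 0.40 (SE 0.14, adjusted p = 0.0480) from 267.2 and 232.6 to 338 and 326.2. That call was lost when any 1 of the 4 arrays was left out (adjusted p from 0.0648 to 0.266), with median centring (0.0550), with no filter (0.0687) and with no variance trend (0.0647). The dimmer Acads probe set read 134.3 and 101 in wild-type skin and 279.4 and 137 in null skin (0.69, SE 0.29, adjusted p = 0.0802). It passed when null replicate 2 (1.17, adjusted p = 0.000729) or wild-type replicate 1 (0.88, adjusted p = 0.0448) was left out. Acadsb, which acts on short branched chains from isoleucine, was read on the B chip at 278.7 and 288.2 against 382.5 and 415.9 and did not pass (0.42, SE 0.19, adjusted p = 0.125). Acadvl, the very-long-chain enzyme, read at most 15 on both of its probe sets and was not tested.

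The promoters of 3 of the genes that rose are shown because they hold the core motif of nuclear receptors, a class to which the lipid-sensing PPAR factors and the estrogen-related receptors belong. They are the 250 bases before the start site on the gene's strand, 5′ to 3′, from RefSeq on GRCm38.p6. Capitals mark AGGTCA or its reverse complement, with the preceding A where it makes AAGGTCA. Acadm lies at chr3:153944644-153944893 on the minus strand, Cpt1a at chr19:3323051-3323300 on the plus strand and Echs1, described below, at chr7:140116422-140116671 on the minus strand.
Acadm: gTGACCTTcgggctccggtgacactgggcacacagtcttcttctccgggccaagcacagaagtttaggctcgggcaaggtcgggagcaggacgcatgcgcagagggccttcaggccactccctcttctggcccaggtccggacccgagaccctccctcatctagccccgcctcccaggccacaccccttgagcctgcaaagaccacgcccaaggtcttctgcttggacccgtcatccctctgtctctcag
Cpt1a: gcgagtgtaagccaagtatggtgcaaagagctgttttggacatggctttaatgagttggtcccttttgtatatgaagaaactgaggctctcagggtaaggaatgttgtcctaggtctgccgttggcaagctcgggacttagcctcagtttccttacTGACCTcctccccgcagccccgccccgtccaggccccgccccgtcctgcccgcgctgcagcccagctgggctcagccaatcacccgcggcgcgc
Echs1: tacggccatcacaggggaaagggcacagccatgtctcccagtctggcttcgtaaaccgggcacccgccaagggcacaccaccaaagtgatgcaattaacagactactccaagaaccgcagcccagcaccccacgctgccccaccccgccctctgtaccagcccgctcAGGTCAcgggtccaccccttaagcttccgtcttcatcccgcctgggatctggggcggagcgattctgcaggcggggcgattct
The match lies 249 to 243 bases before the Acadm start site, 94 to 89 before that of Cpt1a and 83 to 78 before that of Echs1. Both strands were searched, and AAGGTCA matches are counted among those of AGGTCA too. AGGTCA was found in 5 of 32 promoters of the 29 members in the RefSeq table (15.6%), in 3 of the 20 promoters of members that rose (15%), and in 14% of all 32851 promoters. AAGGTCA was found in 1 of 32 member promoters (3.12%) and in 4.08% of all. The PPAR form, AGGNCANAGGNCA, was found in 0 of 32 and in 0.338% of all. The members' shares were thus near those of all promoters in this window.

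The next steps hydrate, oxidise and cleave the chain. Hadh, the dehydrogenase for medium and short chains, read 1241 and 1132 in wild-type skin and 2238 and 2137 in null skin (log2 fold change 0.88, SE 0.11, adjusted p = 0.000307). Acaa2, the matrix thiolase, read 4017 and 4160 against 7017 and 8075 (0.88, SE 0.12, adjusted p = 0.000446). Hadhb, the thiolase subunit of the trifunctional protein that handles long chains, read 1419 and 1451 against 2472 and 2121 (0.67, SE 0.12, adjusted p = 0.00189). These 3 rose by similar amounts, with 95% intervals that overlap and groups that do not. Echs1, the short-chain hydratase, rose by 0.46 (SE 0.12, adjusted p = 0.0119) from 825.8 and 909.4 to 1253 and 1146, a call that ended (adjusted p = 0.0965) when wild-type replicate 1 was left out. Acat1, a thiolase of ketone body and isoleucine metabolism, was tested through 1 of its 3 B-chip probe sets, whose name marks probes shared within a gene family. It read 396.4 and 297.2 in wild-type skin and 308.9 and 654.3 in null skin (0.35, SE 0.32, adjusted p = 0.441), so the groups overlapped. Without null replicate 1 its value was 0.83 (adjusted p = 0.0146) and without null replicate 2 it was -0.13. Hadha, the partner subunit of Hadhb, had no probe set with it as the only symbol.

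Eci1 and Decr1, mitochondrial enzymes that prepare unsaturated chains for the cycle, rose by more than 2-fold on the A chip. Eci1, which shifts double bonds into the place that the cycle can use, read 468.7 and 395.9 in wild-type skin and 1045 and 1026 in null skin (log2 fold change 1.24, SE 0.13, adjusted p = 8.17e-05). Decr1, the dienoyl-CoA reductase, read 143.8 and 146.3 against 421.3 and 320.2 on the A chip (1.27, SE 0.17, adjusted p = 0.000360). On the B chip it read 223.3 and 201.6 against 601.2 and 437.8 (1.09, SE 0.21, adjusted p = 0.00954). The genotypes did not overlap on either chip. Null array 1 read higher than null array 2 for Decr1 on each chip, though a shared number is not stated to mark the same embryo. Acot2, a thioesterase of the matrix that frees fatty acids from CoA, rose on the B chip by 0.64 (SE 0.13, adjusted p = 0.0120) from 1483 and 1462 to 2140 and 2507. The call did not survive leaving out wild-type replicate 1 (adjusted p = 0.0609) or 2 (0.0711), and its probes may also bind the closely related transcripts of the Acot family.

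Electrons from the first step reach the respiratory chain through the electron transfer flavoprotein. Its subunits Etfa and Etfb rose from 816.9 and 905.5 to 1454 and 1479 (0.76, SE 0.11, adjusted p = 0.000728) and from 1195 and 1267 to 2388 and 2341 (0.93, SE 0.11, adjusted p = 0.000177). Etfdh, the membrane enzyme that takes the electrons on to ubiquinone, read 227.4 and 309 against 527.2 and 601.9 (1.05, SE 0.17, adjusted p = 0.000941). All 3 parts of this route thus rose, with no overlap between genotypes, and the differences between their rises were not tested. A dimmer Etfb probe set read 59.4 to 89.9 in all arrays and did not pass (0.16, SE 0.24, adjusted p = 0.614).

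Of the 3 enzymes found in both organelles, Crat rose most. Crat, which joins short acyl groups to carnitine, read 229.9 and 272.3 in wild-type skin and 738.9 and 680.7 in null skin on its brighter A-chip probe set (log2 fold change 1.46, SE 0.14, adjusted p = 4.98e-05). A dimmer A-chip probe set and the B-chip probe set gave 1.30 (SE 0.27, adjusted p = 0.00471) and 1.69 (SE 0.21, adjusted p = 0.00142). The last 2 probe sets were tested only because their null signals are high, with wild-type signals of 30 to 59.7 and of 121.8 to 136.9, so the call for Crat rests on the first. Ech1, a dienoyl-CoA isomerase, rose by 0.70 (SE 0.11, adjusted p = 0.00109) from 1251 and 1372 to 2087 and 2184. Eci2, a second enoyl-CoA isomerase, rose by 0.56 (SE 0.16, adjusted p = 0.0179) from 398.7 and 534.9 to 644.7 and 735.3, a call that ended (adjusted p = 0.134) when wild-type replicate 1 was left out.

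The peroxisomal members did not move together. Pex11a, a membrane protein that promotes the division of peroxisomes, read 137.1 and 134.5 in wild-type skin and 371.9 and 403.4 in null skin on the A chip (log2 fold change 1.43, SE 0.15, adjusted p = 7.81e-05). Its B-chip probe set gave 316.5 and 271.7 against 420.4 and 471.3 and did not pass (0.52, SE 0.19, adjusted p = 0.0748). Both probe sets read higher in each null embryo than in each wild-type embryo, but their 95% intervals, 1.10 to 1.76 and 0.08 to 0.96, do not meet. Hsd17b4, the peroxisomal bifunctional enzyme, rose by 0.41 (SE 0.13, adjusted p = 0.0295) from 572.8 and 575.1 to 837.4 and 700.3. That call was lost under 5 of 12 alternatives, which were leaving out null replicate 1 (adjusted p = 0.117), wild-type replicate 1 (0.0974) or wild-type replicate 2 (0.111), no filter (0.0526) and no variance trend (0.0669). Acaa1a, the peroxisomal thiolase, read 786.9 and 860 against 1021 and 976.6 and did not pass (0.28, SE 0.12, 95% interval 0.01 to 0.54, adjusted p = 0.0818). Crot, which joins medium-chain products of the peroxisome to carnitine for export, fell on the B chip from 810.4 and 835.6 to 375 and 402.1 (log2 fold change -0.99, SE 0.16, adjusted p = 0.00378). Crot was the only member of the cycle and its carnitine steps, of those tested, that was called lower. Crat, the carnitine acyltransferase for short chains, was called higher on the same chip. Its probe set there passed the filter only through the null arrays, so the 2 calls are not a like comparison. Ehhadh, the other bifunctional enzyme, read 7.4 and 14.9 in wild-type skin and 22.9 and 22.3 in null skin, below the level for testing.

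**Figure D2:**
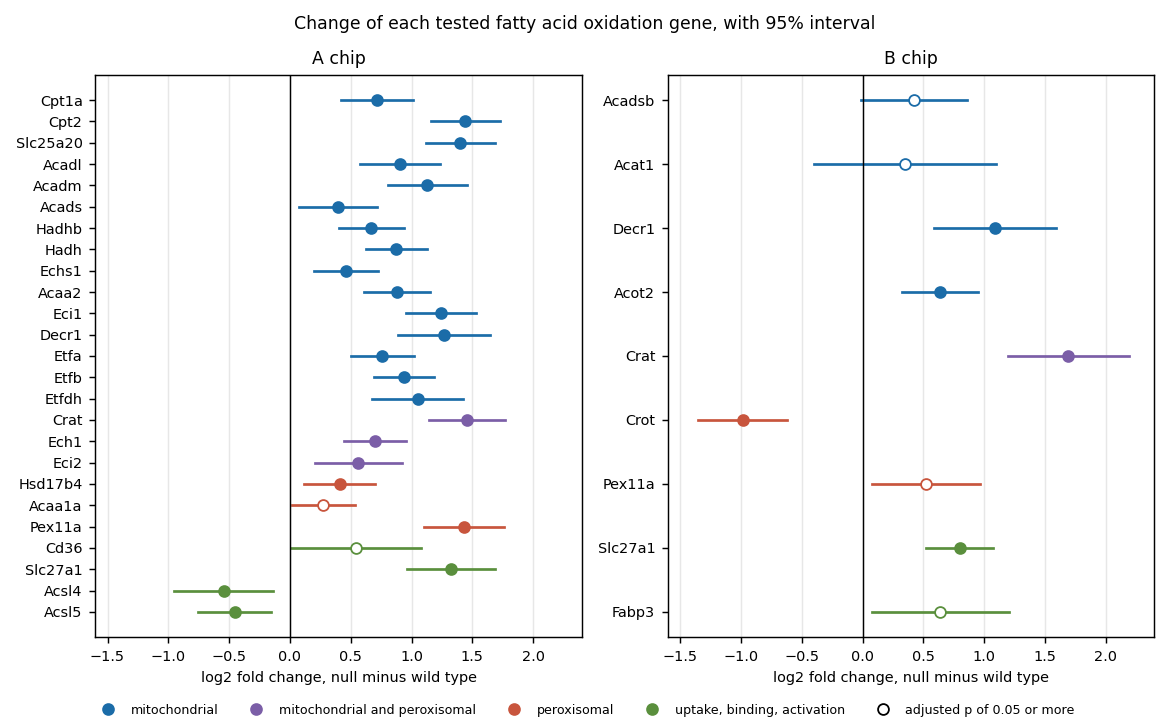
Log2 fold change (null minus wild type) of each tested fatty acid oxidation gene on the A chip (left) and the B chip (right), with bars for the 95% interval of the limma fit and open points where the adjusted p was 0.05 or more. Mitochondrial members on the A chip run from 0.40 to 1.44, while the peroxisomal members run from 0.28 to 1.43 on the A chip and include Crot at -0.99 on the B chip.

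Genes that bring fatty acids into the cell and activate them also went both ways. Slc27a1, a fatty acid transport protein of muscle and fat, read 130.1 and 114.6 in wild-type skin and 349.6 and 302.7 in null skin on the A chip (log2 fold change 1.32, SE 0.16, adjusted p = 0.000218). On the B chip it rose by 0.80 (SE 0.12, adjusted p = 0.00291) from 1527 and 1555 to 2726 and 2711. The rise was thus called on both chips. The acyl-CoA synthetase Acsl5 fell by 0.46 (SE 0.13, adjusted p = 0.0209) on the A chip, from 395.1 and 417.7 to 281.9 and 304.1. The call ended when null replicate 1 (adjusted p = 0.0532), wild-type replicate 1 (0.0585) or wild-type replicate 2 (0.123) was left out. Acsl4, a synthetase that prefers arachidonic acid, fell by 0.54 (SE 0.18, adjusted p = 0.0360) from 186.7 and 228.8 to 153.1 and 123.7. Leaving out null replicate 2 (adjusted p = 0.130) or wild-type replicate 2 (0.231), or using no filter (0.0766), ended the call. On the B chip Acsl4 read 143 and 146.5 against 123.4 and 85.2, and on a second A-chip probe set 23.2 and 28.3 against 29.1 and 21.5, both below the level for testing. On their tested probe sets both synthetases read lower in each null embryo than in each wild-type embryo, while the dim A-chip probe set of Acsl4 overlapped. Acsl1, the synthetase of muscle and fat, had no probe set with it as the only symbol.

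Cd36, a fatty acid receptor also found on endothelium and macrophages, read 63.5 and 62.2 in wild-type skin and 121.3 and 77.7 in null skin on the A chip (0.54, SE 0.24, adjusted p = 0.0928). It passed when null replicate 2 was left out (0.83, adjusted p = 0.0217). Fabp3, the fatty acid binding protein of heart and skeletal muscle, read 4144 and 2851 against 4332 and 6695 on the B chip (0.64, SE 0.24, adjusted p = 0.0847). It passed when null replicate 1 (0.95, adjusted p = 0.00206) or wild-type replicate 1 (0.91, adjusted p = 0.0387) was left out, and with the replicate block (adjusted p = 0.0209). Its A-chip probe set read 33.1 and 31.8 against 63.1 and 77.7, below the level for testing. The B-chip probe set of Cd36, also below that level, read 76.7 and 77.3 against 89 and 17.3, so the genotypes overlapped there, and another on the A chip read at most 0.7. Neither gene passed the test on either chip.

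**Figure D3:**
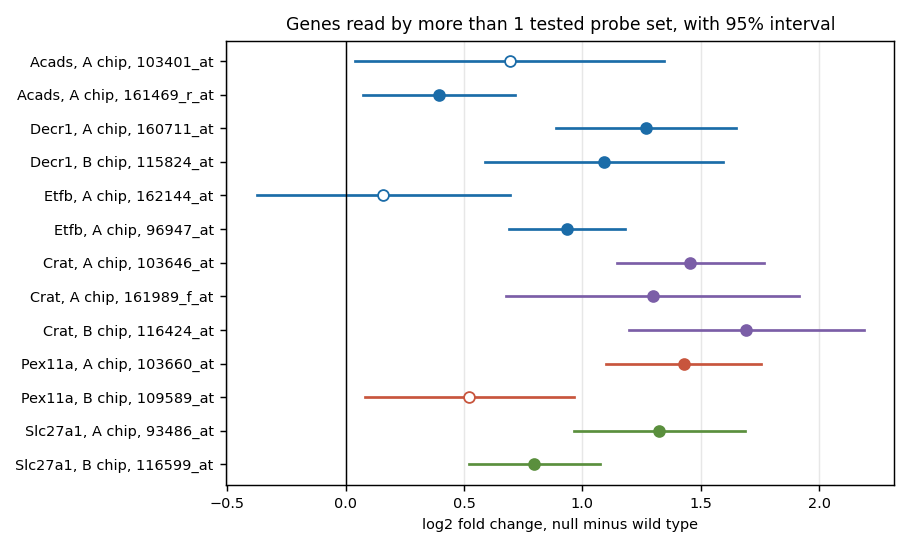
Log2 fold change (null minus wild type) with its 95% interval for the 6 members read by more than 1 tested probe set, labelled by gene, chip and probe set, with open points where the adjusted p was 0.05 or more. Crat and Decr1 gave like values on all their probe sets, while Pex11a (1.43 and 0.52) and Etfb (0.93 and 0.16) differed between theirs. For Crat, the dimmer A-chip probe set and the B-chip probe set passed the filter only through the null arrays, which favoured a rise.

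Other genes of the pathway moved in part with the members. Of 8 tested regulators on the A chip 6 rose and 0 fell, with a median of 0.89, where 22.4% of all tested genes rose and 22.8% fell. The rises were led by Pdk4, a kinase that turns off pyruvate oxidation (1.51, adjusted p = 0.000405), Ppara, the PPAR factor of fatty acid oxidation (log2 fold change 1.25, adjusted p = 0.00125), and the mitochondrial deacetylase Sirt3 (1.11, adjusted p = 0.00528). Ppara and Sirt3 passed the filter only through the null arrays, and of the 6 regulators above the filter level in each genotype 4 rose. Ppara read 43.6 and 39 in wild-type skin and 111.5 and 120.3 in null skin. Its B-chip probe set, which stayed below the level for testing on its mean, read 31.9 and 27.2 against 378.6 and 511.4. Of 11 regulators on the B chip 4 rose and 1 fell, with a median of 0.58, where 16.1% of all tested genes rose and 16% fell. Pdk2 (1.64, adjusted p = 0.00483), Acacb, whose product malonyl-CoA blocks Cpt1 (1.57, adjusted p = 0.000363), and the AMP-activated kinase subunit Prkaa2 (1.55, adjusted p = 0.000597) rose most. Rxra, the partner of PPAR factors, fell on the B chip (-0.83, adjusted p = 0.00489), whereas its A-chip probe set gave 0.35 (adjusted p = 0.125).

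Among other enzymes and carriers of fatty acid breakdown, 10 of 22 rose and 4 fell on the A chip, with a median of 0.40. On the B chip 5 of 13 rose and 3 fell, with a median of 0.29. Of all tested genes, 22.4% rose and 22.8% fell on the A chip, and 16.1% rose and 16% fell on the B chip. Phyh, which starts the breakdown of phytanic acid in peroxisomes, rose by 1.68 (adjusted p = 0.000177) from 159.3 and 103.4 to 461.6 and 417.5. Acaa1b, the close relative of Acaa1a whose probes may share its transcripts, rose by 1.14 (adjusted p = 0.000314), and Ivd of leucine breakdown rose on both chips (0.80, adjusted p = 0.00496, and 0.77, adjusted p = 0.00606). Pcca of propionate metabolism (1.35, adjusted p = 0.000243) and the peroxin Pex16 (0.80, adjusted p = 0.00567) rose on the B chip. Acad9, a dehydrogenase that also builds respiratory complex I, fell on both chips (-0.997, adjusted p = 0.000382, and -0.92, adjusted p = 0.0298), and the peroxin Pex13 fell on the A chip (-0.70, adjusted p = 0.0212). The B-chip probe sets of Acad9 and of Bdh1, described below, passed the filter only through the wild-type arrays. Of the 11 B-chip genes of this list above the filter level in each genotype, 5 rose and 1 fell.

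Set beside the other mitochondrial pathways on the A chip, the citric acid cycle rose in 14 of 16 tested genes and fell in 0, with a median of 0.68. The respiratory chain and ATP synthase rose in 29 of 54 and fell in 1, with a median of 0.38. Of all tested genes on this chip, 22.4% rose and 22.8% fell. The 15 mitochondrial members of fatty acid oxidation, all higher with a median of 0.90, were not tested against either list. The largest rises of the respiratory chain were those of Cox7a1 (3.08, adjusted p = 1.88e-06), Cox8b (1.67, adjusted p = 8.28e-06) and Cox6a2 (1.47, adjusted p = 1.58e-05), forms of cytochrome oxidase subunits found in muscle or brown fat. The first 2 are also in the brown adipocyte list below. Cox7a1 passed the filter only through the null arrays, and of the 51 respiratory chain genes above its level in each genotype 28 rose and 1 fell.

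**Figure D4:**
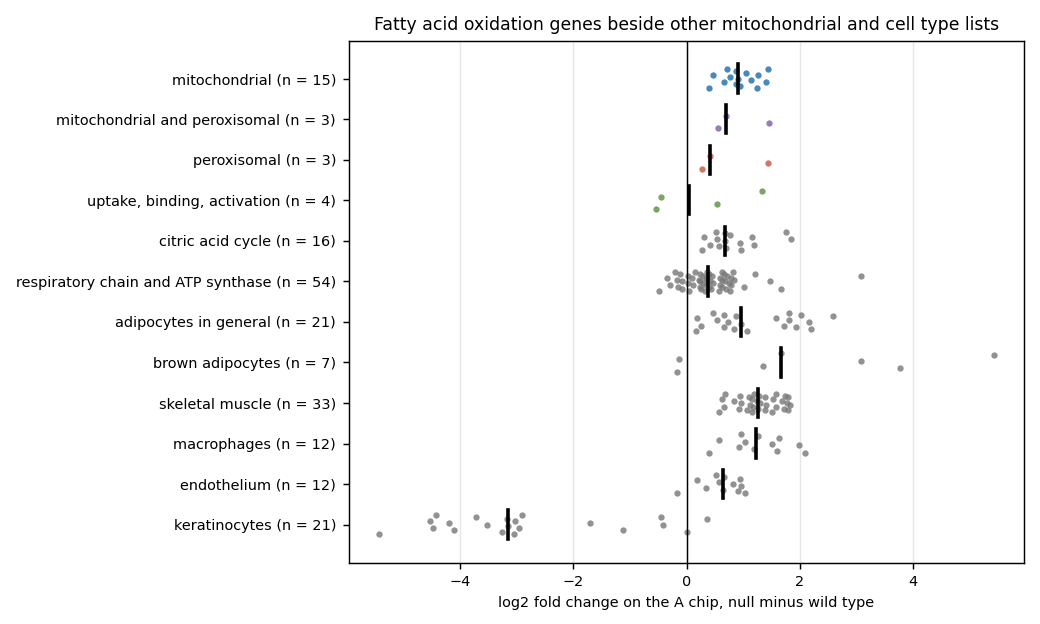
Log2 fold change on the A chip (null minus wild type) of every tested gene of the fatty acid oxidation groups, of other mitochondrial lists and of cell type marker lists, 1 point per gene with a bar at the median. Mitochondrial fatty acid oxidation genes (median 0.90) lie between the respiratory chain (0.38) and skeletal muscle (1.26), and keratinocyte genes lie far to the left (-3.14).

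Markers of the cells that use fatty acids moved with the members, and so did those of macrophages and endothelium. In bulk skin, a changed share of a cell type in the RNA cannot be told apart from changed transcript levels per cell. This holds for rises as for falls. On the A chip 22.4% of all tested genes rose and 22.8% fell. Skeletal muscle markers rose in 33 of 33 tested genes on that chip, with a median of 1.26. Their summed signal was 25191 to 25551 in wild type and 52159 to 57396 in the null. Markers of adipocytes in general rose in 17 of 21, with a median of 0.96 and a summed signal of 24491 to 24871 against 46997 to 52026. Brown adipocyte markers rose in 5 of 7, with a median of 1.67 and a summed signal of 1120 to 1130 against 6059 to 6410. Ucp1, Cox7a1 and Ebf2, 3 of these 5, passed the filter only through the null arrays, and they enter this median and summed signal. Of the 4 markers above the filter level in each genotype 2 rose. The other 2, Dio2 (-0.16, adjusted p = 0.591) and Zic1 (-0.13, adjusted p = 0.494), were not called. The count of rises above that level was 31 of 31 for skeletal muscle and 16 of 20 for adipocytes in general. Ucp1, the uncoupling protein that defines brown fat, read 33.8 and 31.7 in wild-type skin and 1859 and 2023 in null skin. Of the A-chip markers not tested, Elovl3 and Slc27a2 read at most 13 and 2.9, and the genotypes overlapped. Ppargc1a (3 and 2.4 against 15.4 and 15.3) and Kcnk3 (5.6 and 5.3 against 37.7 and 31.7) read higher in both null arrays. So did S100b (24.8 and 21 against 37.9 and 38.2). On the B chip Kcnk3 rose (1.57, adjusted p = 0.000744) and Pank1 was not called (0.34, adjusted p = 0.130). Macrophage markers rose in 11 of 12, with a median of 1.23 and a summed signal of 4500 to 4669 against 10865 to 11916. Endothelial markers rose in 8 of 12, with a median of 0.65 and a summed signal of 4504 to 4522 against 6594 to 7346. Of the hepatocyte markers only Alb and Cyp2e1 were tested and both rose, Alb, which passed the filter only through the null arrays, from 47.5 and 41.9 to 268.8 and 285. The other hepatocyte markers on the A chip read at most 54.7 in all arrays. Of these, Apoa1, Ahsg and Cps1 read higher in both null embryos, Cps1 from 35.6 and 29.9 to 54.7 and 47.6, Ttr and Fgb overlapped, and the probe sets of Apoa2 and of Afp went different ways. Keratinocyte markers, which define the labelled tissue, fell in 18 of 21 and rose in 0 (15 of the 18 above the filter level in each genotype), with a summed signal of 60660 to 62978 against 11797 to 13928. No marker list was at 0 in either genotype, and the part of these cell types in the rise of fatty acid oxidation genes was not tested.

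Trp63 itself fell from signals of 379.3 and 347.1 to 61.9 and 46.6 (-2.49, SE 0.18, adjusted p = 1.13e-05). The ratio of 3′ to 5′ signal of beta-actin, which reflects RNA integrity and labelling, was 1.51 to 1.98 in the wild-type arrays and 1.27 to 1.36 in the null arrays over both chips, so it moved with genotype beside every result here, and its part was not tested. Null array 2 of each chip stood apart in an added control transcript (CreX, 3′ probe set). This array read 6420 on the A chip, where the others gave 3334 to 3837. On the B chip it read 32512, where the others gave 16966 to 18942. When it was left out, the A chip had 21 members higher and 1 lower, with Cd36 gained and the calls of Acads and Acsl4 lost, and the B chip had 4 and 1. Wild-type array 2 of each chip stood apart in the 3′ to 5′ ratio of Gapdh. This array gave 2.46 on the A chip, where the others gave 1.25 to 1.47. On the B chip it gave 2.66, where the others gave 1.26 to 1.55. When it was left out, the A chip had 19 members higher and 0 lower, and the B chip had 3 and 1.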

How the data were processed

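The authors deposited 1 linear intensity for each probe set and array, computed by MAS5 (submitters' processing notes). The MAS5 version and detection calls are not given. Per the labels' protocols, TriZol and then RNeasy gave the total RNA, and the label was biotin. The 2% trimmed mean was 250.1 to 250.2 on every A-chip array and 500.1 on every B-chip array, so the signals had already been scaled.

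Each chip was analysed on its own. Arrays were rescaled to a common 2% trimmed mean, and the 20th percentile of the signals (12.9 for A, 54.3 for B) was the offset. Fold changes are differences of log2(signal + offset), so those of dim genes are understated. The 66 control probe sets per chip were left out. Probe sets whose mean log2 value over the 4 arrays exceeded the 40th percentile (a signal of about 54 for A and 167 for B) were tested, 7453 and 7446 in all. Genotypes were compared with limma 3.58.1 in R 4.3.3 (lmFit, eBayes with an intensity trend, two-sided) without pairing, with Benjamini-Hochberg adjustment over each chip's tested probe sets. The script was checked on artificial data with known changes. The number of arrays limits the precision.

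Gene names come from the platform annotation of each chip. Controls included, the annotation gave 1 symbol to 10855 A-chip and 10603 B-chip probe sets, several to 396 and 178, and none to 1237 and 1696. Members and lists were chosen with earlier results of these data known. All members are described; of other lists, Trp63, the leading rises and falls and the first markers could be named, and those that bear on the members were. Of the listed symbols 2 were matched through a synonym, and 1 that proved to be a member was left out of its list. Alternatives were median centring, quantile normalization, other offsets and filters, no variance trend, a replicate block, the dimmest tested probe set per gene and leaving out each array. The alternatives kept the normalization of all 4 arrays. No list was tested as a set.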

Additional observations from a re-analysis of the deposited data

How the results depend on the processing

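On the A chip the members called higher numbered 18 to 21 over all alternatives, against 21, and the median of the mitochondrial members stayed between 0.87 and 0.94. The count called lower, 2, was 1 with no filter and 0 to 1 when an array was left out. On the B chip the count called higher, 4, was 2 with the filter at the 60th percentile, where 5 members were tested, and 3 to 6 when an array was left out. The peroxisomal median there, -0.23 over 2 genes, was -0.99 with that filter, which left only Crot. The mitochondrial median, 0.53, ran from 0.45 to 0.79 when an array was left out. Over all A-chip probe sets, leaving out an array took the 1646 higher to between 1074 and 1579, and the 1653 lower to between 1051 and 1796. On the B chip the same took 1083 higher to between 577 and 1244, and 1106 lower to between 542 and 1355.

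The labels share the numbers 1 and 2 between genotypes, but same-numbered embryos did not deviate together (r across probe sets of 0.04 for A and -0.05 for B). With the replicate number as a block, the A chip had 21 members higher and 2 lower, and the B chip had 5 and 1. The block added the dimmer Acads probe set and Fabp3 to the calls and ended no member's call. No called member reversed its direction in any alternative. With 2 embryos per genotype and signals that carry no detection call, a dim member such as Acadvl or Ehhadh cannot be judged.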

Other observations

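Acyl-CoA thioesterases of the Acot family went in opposite directions. Acot1, the cytosolic relative of Acot2, read 305.2 and 271.6 in wild-type skin and 119.6 and 117.5 in null skin on the A chip (log2 fold change -1.19, adjusted p = 0.000339), and 686.3 and 772.6 against 275.6 and 451.4 on the B chip (-0.94, adjusted p = 0.0216), while Acot2 rose by 0.64 there. Sequences of the 2 transcripts are close, and which of them each probe set binds was not tested.

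Bdh1, the mitochondrial enzyme that interconverts the 2 main ketone bodies, fell from 1314 and 1191 to 144.8 and 74.9 on the B chip (log2 fold change -3.02, SE 0.24, adjusted p = 0.000169). Oxct1, which activates ketone bodies for use, read 907.9 and 895.4 against 890.3 and 927.6 on the A chip (0.01, SE 0.11, adjusted p = 0.945). The genotypes overlapped for Oxct1 and stood apart for Bdh1. The Bdh1 probe set passed the filter only through the wild-type arrays. Bdh1 was named for its place among the largest falls of its list.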
